A study of Mus musculus with 24 samples.

Results

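The clustered protocadherins are cadherin-type adhesion proteins encoded in 3 neighbouring gene arrays, alpha, beta and gamma. All rows of the deposited expression table whose symbol names a member of these arrays were taken, which gave 58 of its 22943 genes. They comprised 14 alpha, 22 beta and 22 gamma members, and the gamma members divided into 12 of subfamily A, 7 of subfamily B and 3 of subfamily C. On mouse chromosome 18 (GRCm38, the assembly behind mm10) the RefSeq genes of the alpha array spanned chr18:36930285-37188897, those of the beta array chr18:37264998-37521419 and those of the gamma array chr18:37661775-37841873.

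Each alpha and gamma member has its own promoter and a large variable first exon that is spliced to constant exons shared by the array, whereas beta members are single-exon genes without such a shared part. The extracellular domains bind the same isoform on another cell, and the family is best known in neurons, where promoter choice differs from cell to cell and gives each neuron its own set of surface proteins. Most of the promoters carry a conserved element bound by CTCF, a DNA-binding protein that halts cohesin and so places promoters beside distant enhancers of the locus. The promoters of Pcdhac2, Pcdhb1, Pcdhgc4 and Pcdhgc5 lack that element.

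RNA was sequenced from whole uteri of female C57BL/6 mice aged 21 days in 24 libraries. The knockouts (labelled PgreCre+;Ctcf-f/f, cKO) carried floxed Ctcf alleles and a Cre recombinase driven from the progesterone receptor gene Pgr. Deletion is therefore limited to cells in which Pgr is or was active. The controls were littermates with the same floxed alleles and no Cre (Ctcf-f/f), so the loss of Ctcf and the presence of the Cre allele cannot be told apart. All animals had a subcutaneous injection 6 hours before collection, of progesterone (P4) at a dose of 0.5 mg or of vehicle, both in sesame oil with a volume of 0.05 ml. The groups were 4 knockout and 4 floxed libraries after progesterone, and 8 knockout and 8 floxed libraries after vehicle. The labels name 2 library batches, a mixed batch with 4 libraries of each group and a vehicle-only batch with the other 4 vehicle libraries of each genotype. Whether the libraries came from separate animals is not stated in the labels, so the p-values measure the spread between libraries. In whole uteri fewer cells that express a gene and less RNA per cell cannot be told apart.

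Values are batch-corrected RPKM, that is, reads scaled by gene length and by library size, after the authors' correction. Sequencing depth, estimated from the smallest steps between values of scarce genes, ranged from 29900000 to 100600000 reads per library. Ctcf itself averaged 9.95 ± 0.982 RPKM in knockout uteri and 26 ± 1.05 RPKM in floxed uteri after progesterone (SD, n = 4 each; exact permutation test, two-sided, p = 0.0286, the smallest that 4 against 4 allows). After vehicle it averaged 11.5 ± 1.11 RPKM in knockout uteri and 25.9 ± 2.36 RPKM in floxed uteri (SD, n = 8 each; exact permutation test, p = 0.000155). The ranges did not overlap under either treatment. Of the libraries, 5 carried high levels of an oviduct marker (Ovgp1) or a squamous epithelium marker (Krt5): knockout vehicle 9 and 12, knockout progesterone 8, floxed progesterone 7 and floxed vehicle 3. Counts of beta and gamma members called between genotypes and after progesterone are also given without them, as are the beta non-overlap counts. So are the alpha, beta and gamma A and B sums, and some of the calls of single members that changed. A call printed with no such value was not necessarily kept without them. Leukocyte markers were higher in knockouts under both treatments, 6 of 6 tested, and their summed level was 130.0 to 323 RPKM in knockout and 84.0 to 142 RPKM in floxed uteri after progesterone, and 174 to 327 RPKM in knockout and 80.4 to 131 RPKM in floxed uteri after vehicle. Of 12 markers of nerve and glia 6 were tested, and Uchl1 alone rose, by a log2 change of 2.36 ± 0.17 after progesterone (adjusted p = 1.83e-09) and of 1.94 ± 0.12 after vehicle (limma, adjusted p = 7.02e-11). Sox10, a transcription factor of glia, did not pass the test, and Tubb3 and Elavl4 of neurons did not exceed 0.405 RPKM in any library. The summed level of that list was 31.6 to 45.6 RPKM in knockout and 11.5 to 13.9 RPKM in floxed uteri after progesterone, and 22.5 to 33.5 RPKM in knockout and 9.25 to 16.6 RPKM in floxed uteri after vehicle. Of 6 epithelial markers 2 were higher after progesterone, and 1 was higher and 4 lower after vehicle; their summed level was 294 to 426 RPKM in knockout and 221 to 379 RPKM in floxed uteri after progesterone, and 219 to 328 RPKM in knockout and 289 to 422 RPKM in floxed uteri after vehicle. Of 7 stromal markers 2 were lower under each treatment, with sums of 779 to 1200 RPKM in knockout and 944 to 1280 RPKM in floxed uteri after progesterone, and 1060 to 2070 RPKM in knockout and 1130 to 1400 RPKM in floxed uteri after vehicle. Of 6 endothelial markers 1 was higher after progesterone and 2 after vehicle, with sums of 243 to 272 RPKM in knockout and 210 to 236 RPKM in floxed uteri after progesterone, and 232 to 325 RPKM in knockout and 195 to 235 RPKM in floxed uteri after vehicle. Of 4 mesothelial markers 1 was higher after progesterone and 2 after vehicle, with sums of 47.4 to 61.2 RPKM in knockout and 31.8 to 49.8 RPKM in floxed uteri after progesterone, and 60.2 to 89.2 RPKM in knockout and 46.4 to 77 RPKM in floxed uteri after vehicle. Of the other lists, 2 of 4 skeletal muscle markers were lower after vehicle, 1 of 2 tested ovary markers was higher after progesterone, and none of 6 smooth muscle markers was called. The part of these cell types in the protocadherin results was not tested.

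The 3 arrays stood at very different levels in the uterus. The 14 alpha members together summed to 0.218 ± 0.0671 RPKM in knockout and 0.336 ± 0.0208 RPKM in floxed uteri after progesterone (SD, n = 4 each), and to 0.215 ± 0.0436 RPKM in knockout and 0.286 ± 0.0658 RPKM in floxed uteri after vehicle (SD, n = 8 each). Pcdhac2, a C-type alpha member known in mice for spacing serotonergic axons, had the highest mean of its array at 0.0646 RPKM over all libraries. It reached no more than 0.168 RPKM in any knockout and 0.143 RPKM in any floxed library. Alpha RNA was thus near the limit of what these libraries show gene by gene. Pcdha6 did not rise above the lowest value of its batch in any library, beyond rounding.

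The beta array was expressed at low levels throughout, with 21 of 22 members detected and the 5′-most member, Pcdhb1, at or next to its batch's lowest value in all 4 groups. Pcdhb9 had the highest mean of the array, 2.85 RPKM over all libraries, followed by Pcdhb17 with 2.79 RPKM. The gamma array was dominated by Pcdhgc3, a C-type member that in mice promotes dendrite branching and restrains canonical Wnt signalling, with a mean of 34.1 RPKM over all libraries. The next gamma member, Pcdhgb6, had 3.28 RPKM, and the leading A member, Pcdhga3, 1.58 RPKM. The means of Pcdhb9 and Pcdhb17 differed by less than the SD among the floxed vehicle libraries of either gene.

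**Figure D1:**
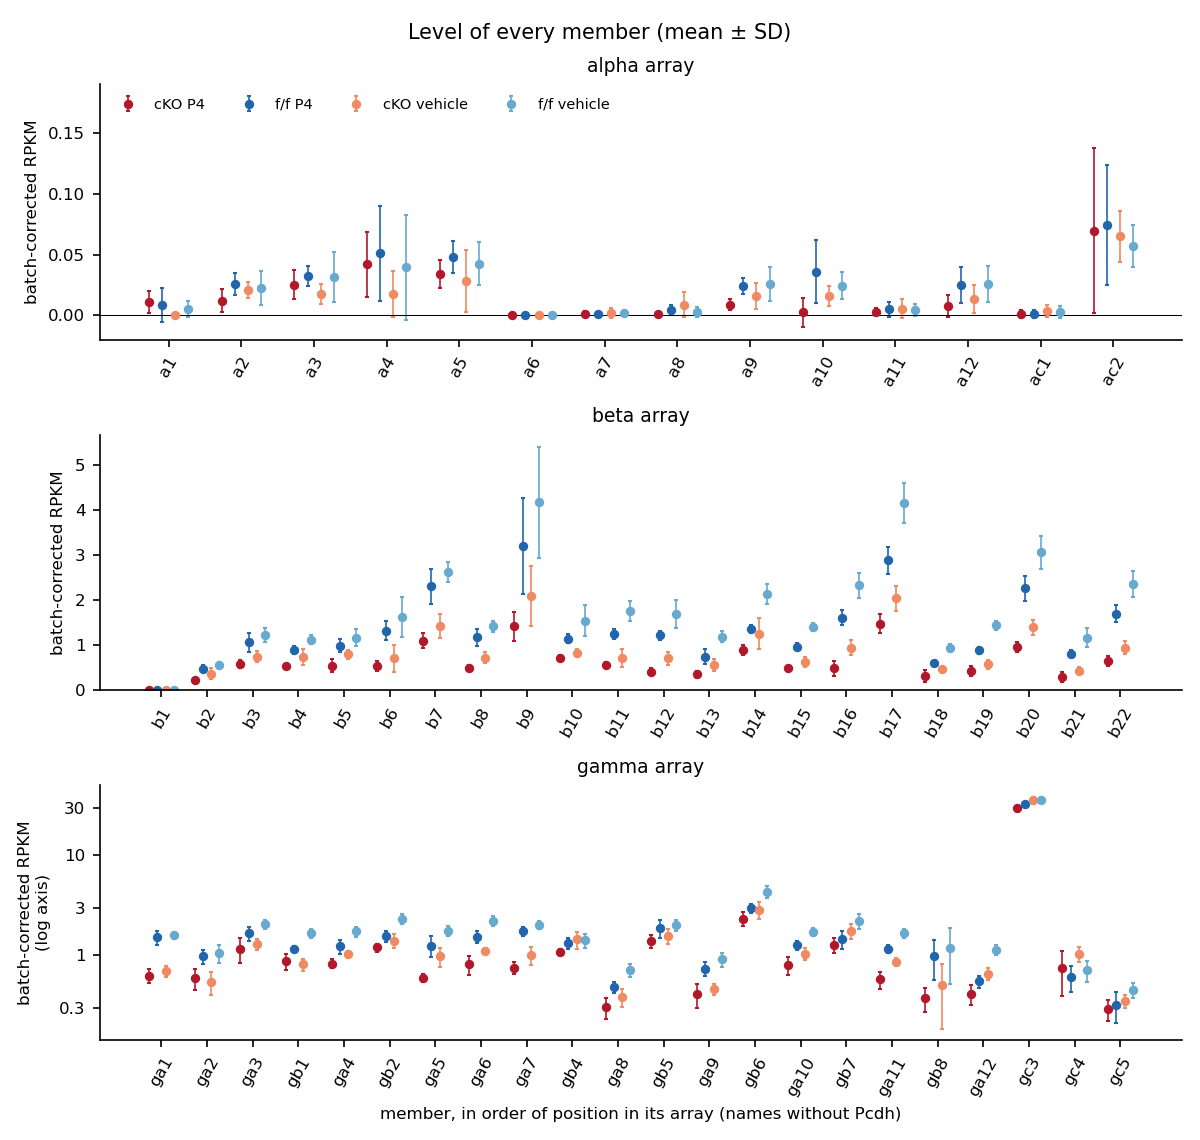
Level of each alpha, beta and gamma member in batch-corrected RPKM, in the order of their starts on the chromosome. Points are means and bars SDs of cKO after P4 (n = 4), f/f after P4 (n = 4), cKO after vehicle (n = 8) and f/f after vehicle (n = 8). The gamma panel has a log axis, and Pcdhgc3 stands apart at 29.5 to 36.0 RPKM while alpha members stay below 0.1 RPKM on average.

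Members of an array resemble each other, which bears on how reads were divided among them. The share of 50-base stretches of a member's GENCODE transcripts that also occur in another member had a median of 59.3% for 13 alpha members (34.7% to 63.9%), 44.4% for 22 gamma members (26.9% to 65.3%) and 4.27% for 22 beta members (0% to 12%). For alpha and gamma these stretches include the shared constant exons. The handling of such reads is not stated in the labels, so gamma levels, that of Pcdhgc3 included, may hold reads of other members, and beta levels are the more separable.

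A gene was tested where it had at least 1 RPKM in at least 4 libraries. No alpha member passed, nor did Pcdhb1, Pcdhb2, Pcdhb18, Pcdhga8 and Pcdhgc5, which left 19 beta and 20 gamma members. Of these 39, 21 passed through their levels in floxed libraries and would not have passed on knockout libraries alone. Counts over members are therefore given from a fit of all 22943 genes with no filter, and from non-overlap of libraries over all members. Fold changes and adjusted p-values of single members come from the filtered fit of 14284 genes (limma with Benjamini-Hochberg adjustment, two-sided) unless stated, on the log2(RPKM + 0.5) scale, which understates the change of genes with low levels. A gene was called at an adjusted p under 0.05, and errors of log2 changes are SEs.

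Loss of Ctcf went with lower RNA of nearly the whole beta array. Without the filter, 21 of 22 beta members were lower in knockout uteri after vehicle, against 8.24% of all genes called lower there, and 21 of 22 were lower after progesterone, against 4.81% of all genes. The exception was Pcdhb1 in both. The median log2 change over the 22 members was -0.74 after vehicle and -0.65 after progesterone, beside medians near 0 over all tested genes (-0.01 after vehicle and 0.03 after progesterone). The following counts are likewise from fits of all genes with no filter. Without the 5 libraries with oviduct or squamous markers 17 of 22 were called lower after progesterone, against 3.29% of all genes, and 20 of 22 after vehicle, against 6.21%. On the plain RPKM scale 18 of 22 were called lower after progesterone, against 4.62% of all genes, and 21 of 22 after vehicle, against 7.72%. The mixed batch fitted alone called 19 of 22 lower after vehicle, against 6.12% of all genes, and the vehicle-only batch, 4 against 4, called 15 of 22, against 1.90%. With the replicate number as a block in the filtered fit, most tested beta members were not called after progesterone, as given in the closing sections.

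The summed level of the array showed the size of the difference. It was 14.7, 13.8, 13.4 and 11.4 RPKM in the knockout libraries after progesterone, against 27.6, 30.4, 28.1 and 28.6 RPKM in the floxed libraries. After vehicle it ranged from 16.6 to 22.5 RPKM with a median of 18.5 RPKM in knockouts, against 33.9 to 43.4 RPKM with a median of 39.4 RPKM in floxed uteri. No knockout library reached the lowest floxed library of its treatment, and the lowest sum belonged to knockout progesterone 8, which carried Krt5. The knockout mean was 46.4% of the floxed mean after progesterone and 48.7% after vehicle, and 48.3% and 49.4% without the 5 libraries with oviduct or squamous markers. Within batches, the vehicle sum was 18.5 ± 1.15 RPKM in knockout and 39.4 ± 1.2 RPKM in floxed libraries of the mixed batch, and 19.4 ± 2.6 RPKM in knockout and 38.4 ± 4.16 RPKM in floxed libraries of the vehicle-only batch (SD, n = 4 each).

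**Figure D2:**
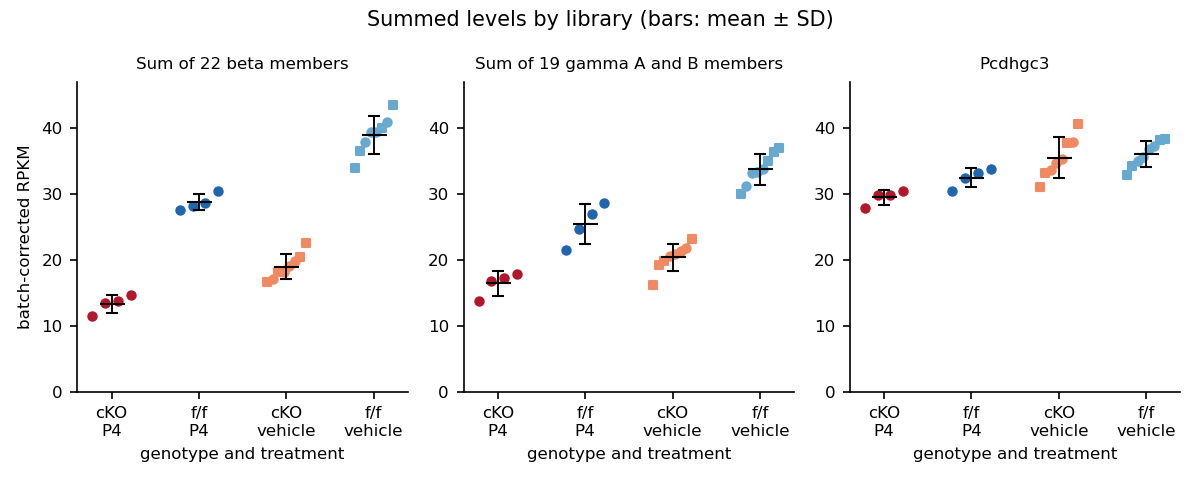
Summed batch-corrected RPKM per library of the 22 beta members, of the 19 gamma A and B members, and of Pcdhgc3 alone, for cKO and f/f uteri after P4 (n = 4 each) and after vehicle (n = 8 each). Each point is a library (circles, mixed batch; squares, vehicle-only batch), sorted by value within its group; bars are mean ± SD. The beta and the gamma A and B sums of cKO libraries lie below all f/f libraries of the same treatment, while those of Pcdhgc3 overlap after vehicle and nearly meet after P4.

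Individual beta genes differed in how far they fell. Pcdhb22, the 3′-most member (chr18:37518353-37521419), had 0.501, 0.643, 0.684 and 0.736 RPKM in knockout libraries after progesterone, against 1.48, 1.62, 1.72 and 1.93 RPKM in floxed libraries. Vehicle libraries ranged from 0.702 to 1.16 RPKM (median 0.944) in knockouts, against 1.82 to 2.71 RPKM (median 2.38) in floxed uteri. All knockout libraries lay below all floxed libraries. Its log2 change was -0.94 ± 0.12 after progesterone (limma, adjusted p = 4.25e-06) and -0.99 ± 0.08 after vehicle (adjusted p = 6.16e-09), the largest fall among the 19 tested beta members after vehicle.

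Pcdhb5, near the 5′ end (chr18:37320381-37323913), changed least among the tested members after vehicle. It had 0.452, 0.463, 0.470 and 0.747 RPKM in knockout libraries after progesterone, against 0.831, 0.959, 0.980 and 1.16 RPKM in floxed libraries. With vehicle the range was from 0.658 to 0.932 RPKM (median 0.774) in knockouts, against 0.939 to 1.53 RPKM (median 1.11) in floxed uteri. The groups did not overlap, though after vehicle the highest knockout and the lowest floxed library nearly met. Its log2 change was -0.53 ± 0.12 after progesterone (limma, adjusted p = 0.00356) and -0.35 ± 0.09 after vehicle (adjusted p = 0.00367), and -0.33 within the vehicle-only batch, where the adjusted p was 0.277. Without the 5 libraries with oviduct or squamous markers the progesterone difference was -0.44 (adjusted p = 0.0565).

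Pcdhb3, the first member of the array to pass the filter (chr18:37300799-37304585), had 0.520, 0.522, 0.572 and 0.701 RPKM in knockout libraries after progesterone, against 0.867, 0.927, 1.10 and 1.33 RPKM in floxed libraries. In vehicle libraries it spanned 0.602 to 0.904 RPKM (median 0.717) in knockouts, against 1.04 to 1.43 RPKM (median 1.23) in floxed uteri, again without overlap. Its log2 change was -0.52 ± 0.12 after progesterone (limma, adjusted p = 0.00305) and -0.47 ± 0.08 after vehicle (adjusted p = 0.000178).

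Pcdhb9 combined the highest mean of the array with a wide spread, which ran opposite to that of Pcdhgb8, as given below. It had 1.05, 1.23, 1.67 and 1.67 RPKM in knockout libraries after progesterone, against 2.40, 2.77, 2.82 and 4.78 RPKM in floxed libraries. The vehicle values ran from 1.25 to 3.2 RPKM (median 2.29) in knockouts, against 3.05 to 6.26 RPKM (median 3.95) in floxed uteri. The vehicle ranges overlapped. The genotype difference on the log2 scale was -0.93 ± 0.25 after progesterone (limma, adjusted p = 0.0104) and -0.85 ± 0.18 after vehicle (adjusted p = 0.000829). Without the 5 libraries with oviduct or squamous markers the progesterone difference was -0.87 with an adjusted p of 0.0653.

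Measured as a share of the floxed mean, which needs no pseudocount, the 21 detected beta members retained 29.9% (Pcdhb16) to 64.9% (Pcdhb14) after progesterone, with a median of 47.4%, and 36.9% (Pcdhb21) to 68.3% (Pcdhb5) after vehicle, with a median of 48.7%. Pcdhb16, a member found at synapses of the mouse retina, had 0.236, 0.495, 0.576 and 0.607 RPKM in knockout libraries after progesterone, against 1.39, 1.56, 1.65 and 1.78 RPKM in floxed libraries. The progesterone values carry the constant that the authors' correction added to the mixed batch, which leaves differences in RPKM as they were and moves these shares.

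On the log2(RPKM + 0.5) scale the differences were larger towards the 3′ end of the beta array. The genotype difference was taken in 3 sets of libraries that share none, namely vehicle in the mixed batch, vehicle in the vehicle-only batch and progesterone. The median log2 change at positions 1 to 11 was -0.53, -0.60 and -0.53 in these sets, and at positions 12 to 22 it was -0.94, -0.79 and -0.75. The rank correlation of position with log2 change over the 22 members was -0.77, -0.56 and -0.47, while that of the floxed level with log2 change was -0.78, -0.63 and -0.72. The 5′-most members, Pcdhb1 and Pcdhb2, are also the least expressed of the array, and the pseudocount shrinks the change of low genes, so position and level are not separable over these 22 points, which share their libraries. As a share of the floxed mean, the median after progesterone was 47.5% for the 10 detected members at positions 1 to 11 and 47.1% for the 11 at positions 12 to 22. After vehicle these medians were 53.9% and 44.2%.

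Non-overlap of libraries, which uses no pseudocount, gave a similar count in each set. Every knockout library was below every floxed library for 19 of 22 beta members in the vehicle libraries of the mixed batch, against 11.3% of all genes in the table, for 17 of 22 in those of the vehicle-only batch, against 4.59%, and for 21 of 22 after progesterone, against 7.07%. Over both batches of vehicle libraries, 8 against 8, it held for 16 of 22 members, against 2.51% of all genes. Without the 5 libraries with oviduct or squamous markers it held for 21 of 22 after progesterone, 3 against 3, beside 12% of all genes, and for 16 of 22 after vehicle, 6 against 7, beside 2.99%. With all libraries, the 6 others after vehicle were Pcdhb1, Pcdhb2, Pcdhb4, Pcdhb6, Pcdhb9 and Pcdhb14. In none of these sets was a beta member higher in every knockout library.

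Pcdhb1 and Pcdhb2 at the 5′ end, named here after their values were seen, differed from each other. Pcdhb1 stood at its batch's lowest value in all 4 knockout libraries after progesterone and reached at most 0.0119 RPKM in floxed ones. After vehicle it reached at most 0.0141 RPKM in knockout and 0.00410 RPKM in floxed libraries. At an estimated 2.02 reads in its highest library, a change of Pcdhb1 was not detectable at this depth. Pcdhb2, the next gene, averaged 0.225 RPKM in knockout and 0.472 RPKM in floxed uteri after progesterone and was called lower there in the unfiltered fit (log2 change -0.42 ± 0.11, limma, adjusted p = 0.0151). For Pcdhb5 the lowest library held about 80.5 reads and the highest about 413.

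**Figure D3:**
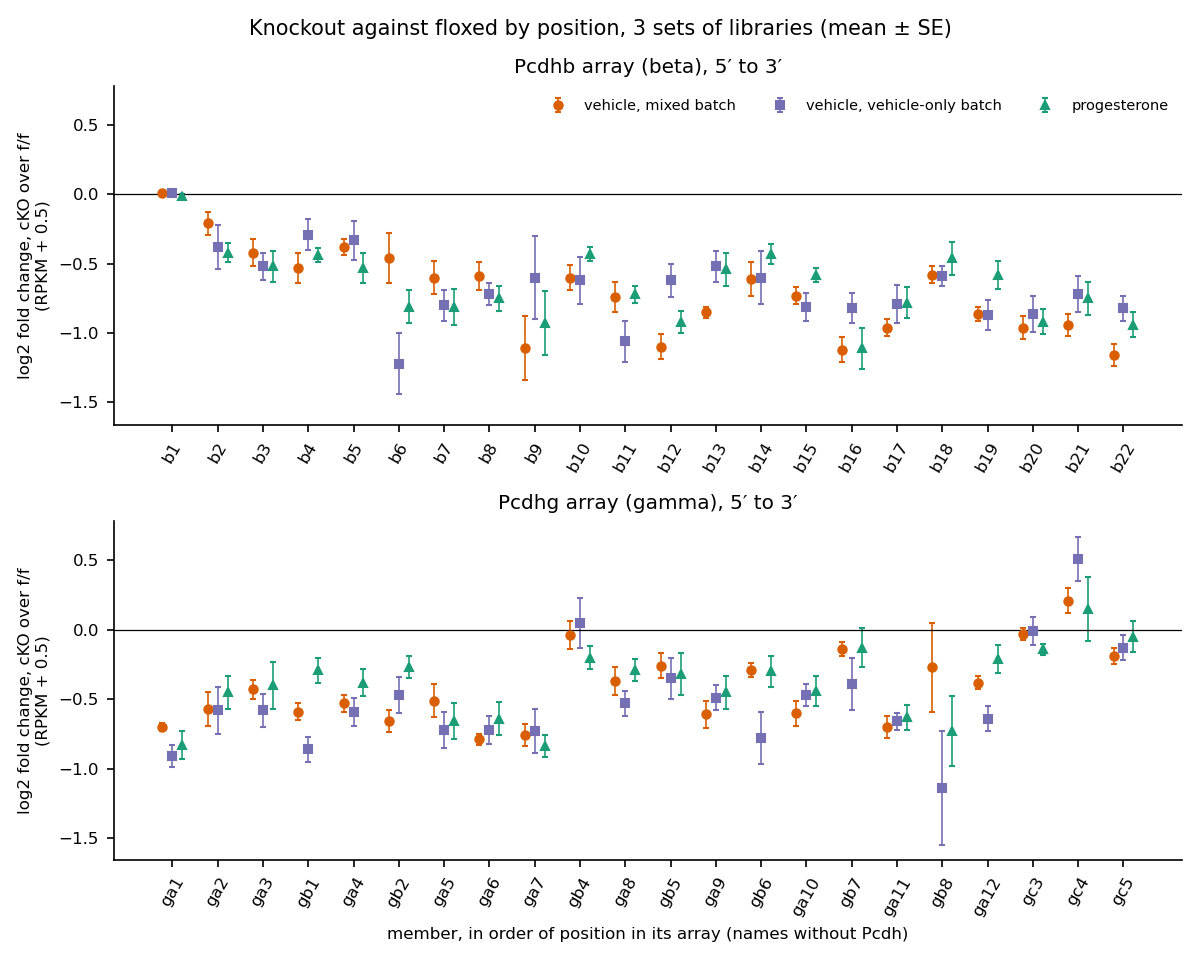
Log2 fold change of cKO over f/f, from log2(RPKM + 0.5), for each beta member (top) and gamma member (bottom) in order of position, in vehicle libraries of the mixed batch (circles), vehicle libraries of the vehicle-only batch (squares) and progesterone libraries (triangles), 4 against 4 each. Bars are SEs. Beta values lie below 0 but for b1, which is near 0. Among gamma members the vehicle values of gb4 and the values of the gamma C members on the right are nearest to or above 0. Those of gb7 in mixed-batch vehicle and progesterone libraries lie as near to 0 as some of the gamma C values.

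In the gamma array most of the members called were of subfamily A, and differences between subfamilies were not tested. Without the filter, 12 of 12 gamma A, 5 of 7 gamma B and none of 3 gamma C members were called lower in knockouts after vehicle, 17 of 22 in all against 8.24% of all genes. After progesterone 11 of 12 gamma A, 1 of 7 gamma B and none of 3 gamma C members were called lower, 12 of 22 in all against 4.81% of all genes. Of the 3 gamma C members none had an unadjusted p under 0.05 after progesterone, and Pcdhgc5 had 0.0245 after vehicle (limma), where Pcdhgc4 was called higher, as were 10.8% of all genes. Without the 5 libraries with oviduct or squamous markers 7 of 22 gamma members were called lower after progesterone, against 3.29% of all genes, and 16 of 22 after vehicle, against 6.21% (no filter, as in the counts that follow). On the plain RPKM scale these counts were 9, against 4.62% of all genes, and 16, against 7.72%. The mixed batch fitted alone called 14 of 22 lower after vehicle, against 6.12%, and the vehicle-only batch called 12, against 1.90%. Most tested gamma members were likewise not called after progesterone with the replicate number as a block in the filtered fit.

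The gamma A and B genes together summed to 17.8, 17.3, 16.8 and 13.7 RPKM in the knockout libraries after progesterone, against 28.6, 26.9, 24.6 and 21.5 RPKM in the floxed libraries. After vehicle the sum ranged from 16.2 to 23.1 RPKM (median 20.8) in knockouts, against 30 to 36.9 RPKM (median 33.6) in floxed uteri. Neither treatment gave an overlap. The knockout mean was 64.5% of the floxed mean after progesterone and 60.4% after vehicle, above the 46.4% and 48.7% of the beta array, and 67.3% and 59.4% without the 5 libraries with oviduct or squamous markers. The difference between the arrays was not tested. Within batches the vehicle sum was 21.2 ± 0.524 RPKM in knockout and 32.9 ± 1.15 RPKM in floxed libraries of the mixed batch, and 19.6 ± 2.83 RPKM in knockout and 34.5 ± 3.14 RPKM in floxed libraries of the vehicle-only batch (SD, n = 4 each).

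Pcdhga1, the 5′-most gamma gene (chr18:37661775-37841870, a span that includes the shared constant exons), fell most among the tested gamma members after vehicle. It had 0.498, 0.614, 0.692 and 0.707 RPKM in knockout libraries after progesterone, against 1.35, 1.37, 1.48 and 1.84 RPKM in floxed libraries. After vehicle it ranged from 0.577 to 0.781 RPKM (median 0.732) in knockouts, against 1.47 to 1.91 RPKM (median 1.57) in floxed uteri. Under both treatments the gap between the groups was wider than the range within either. Its log2 change was -0.83 ± 0.10 after progesterone (limma, adjusted p = 5.37e-06) and -0.81 ± 0.07 after vehicle (adjusted p = 2.54e-08).

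Pcdhga3, the gamma A member with the highest mean, fell less. It had 0.703, 1.18, 1.35 and 1.40 RPKM in knockout libraries after progesterone, against 1.39, 1.58, 1.65 and 2.02 RPKM in floxed libraries, with a slight overlap. Vehicle libraries ranged from 0.994 to 1.45 RPKM (median 1.33) in knockouts, against 1.71 to 2.40 RPKM (median 2.01) in floxed uteri, without overlap. Its log2 change was -0.40 ± 0.13 after progesterone (limma, adjusted p = 0.0418) and -0.50 ± 0.10 after vehicle (adjusted p = 0.000352), and without the 5 libraries the progesterone difference was -0.26 with an adjusted p of 0.219. Across the 12 gamma A members the share of the floxed mean retained in knockouts ran from 41.6% (Pcdhga1) to 75.1% (Pcdhga12) after progesterone and from 44.0% (Pcdhga1) to 63.2% (Pcdhga3) after vehicle.

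Gamma B genes lie interleaved with those of gamma A. After vehicle, Pcdhgb1 (-0.72 ± 0.08), Pcdhgb2 (-0.57 ± 0.08) and Pcdhgb5 (-0.30 ± 0.10) were among the 5 called lower, and Pcdhgb7 (-0.26 ± 0.11, adjusted p = 0.0726, limma) was not called. Without the 5 libraries with oviduct or squamous markers Pcdhgb5 was not called either (-0.28, limma, adjusted p = 0.112). Pcdhgb6, the highest of them in level, had 1.96, 2.13, 2.34 and 2.83 RPKM in knockout libraries after progesterone, against 2.72, 2.77, 2.89 and 3.41 RPKM in floxed libraries. With vehicle the range was from 1.79 to 3.43 RPKM (median 3.13) in knockouts, against 3.62 to 5.39 RPKM (median 4.26) in floxed uteri. The vehicle groups did not overlap and the progesterone groups did. The genotype difference on the log2 scale was -0.30 ± 0.15 after progesterone (limma, adjusted p = 0.177) and -0.54 ± 0.11 after vehicle (adjusted p = 0.000562), and -0.29 after vehicle within the mixed batch (adjusted p = 0.0626). The progesterone difference passed in the mixed batch fitted alone (adjusted p = 0.0445).

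Pcdhgb4 and Pcdhgb8, named after their values were seen, had the highest and the lowest share of the floxed vehicle mean among gamma B members, 101% and 42.5%. Pcdhgb4 had 0.985, 1.08, 1.12 and 1.18 RPKM in knockout libraries after progesterone, against 1.13, 1.28, 1.37 and 1.53 RPKM in floxed libraries. In vehicle libraries it spanned 0.986 to 1.87 RPKM (median 1.43) in knockouts, against 0.977 to 1.66 RPKM (median 1.51) in floxed uteri, and the ranges coincided. Its log2 change after vehicle was 0.01 ± 0.10, with a 95% interval from -0.19 to 0.21, an interval that excludes the fall of the neighbouring Pcdhga7 (-0.74 ± 0.09), likewise named after its values were seen.

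Pcdhgb8, a polymorphic pseudogene in GENCODE, varied widely among libraries of the same group. It ranged from 0.190 to 0.996 RPKM (median 0.447) in knockouts after vehicle, against 0.323 to 2.08 RPKM (median 1.07) in floxed uteri, and its log2 change was -0.70 ± 0.24 (limma, adjusted p = 0.0319). Within the mixed batch the change was -0.27 (adjusted p = 0.545) and within the vehicle-only batch -1.14 (adjusted p = 0.0864), so neither batch alone passed. After progesterone the log2 change was -0.73 ± 0.33 (adjusted p = 0.136). Among libraries of the same group Pcdhb6 varied with Pcdhgb8 and Pcdhb9 against it, as seen afterwards. Floxed vehicle 2, 1a, 10 and 12 had 1.44 to 2.08 RPKM of Pcdhgb8 and 3.05 to 3.12 RPKM of Pcdhb9. Floxed vehicle 1b, 3, 4 and 7 had 0.323 to 0.701 and 4.78 to 6.26 RPKM. Pcdhb6 had 1.78 to 2.37 RPKM in the former and 1.03 to 1.38 RPKM in the latter. After progesterone Pcdhgb8 had 0.282 to 0.516 RPKM in knockouts, against 0.390, 1.02, 1.15 and 1.39 RPKM in floxed libraries. The lowest of these, floxed progesterone 9, had 0.997 RPKM of Pcdhb6 and 4.78 RPKM of Pcdhb9. The other floxed progesterone libraries had 1.36 to 1.47 and 2.40 to 2.82 RPKM. Knockout progesterone 8 had the highest Pcdhgb8 and Pcdhb6 and the lowest Pcdhb9 of its group. The bearing on the genotype differences was not tested.

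**Figure D4:**
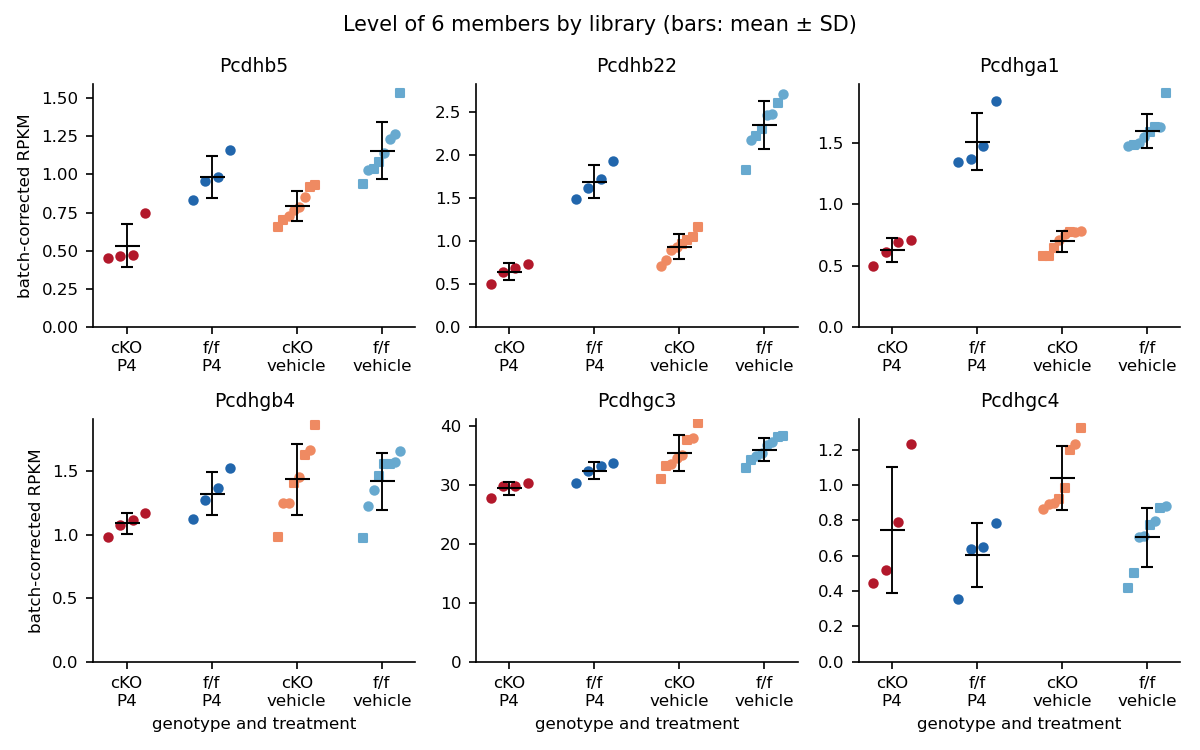
Batch-corrected RPKM of Pcdhb5, Pcdhb22, Pcdhga1, Pcdhgb4, Pcdhgc3 and Pcdhgc4 in each library of the 4 groups (cKO and f/f after P4, n = 4 each; cKO and f/f after vehicle, n = 8 each). Circles are mixed-batch and squares vehicle-only-batch libraries, sorted by value within a group; bars are mean ± SD. The cKO libraries lie below the f/f libraries of the same treatment for Pcdhb5, Pcdhb22 and Pcdhga1, and among or above them after vehicle for Pcdhgb4 and Pcdhgc4. For Pcdhgc3 the cKO range after vehicle reaches past that of the f/f libraries at both ends.

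The gamma C genes close the array at its 3′ end. Pcdhgc3 (chr18:37806410-37841873) had 27.8, 29.8, 29.8 and 30.4 RPKM in knockout libraries after progesterone, against 30.4, 32.4, 33.2 and 33.7 RPKM in floxed libraries. The progesterone groups did not overlap, though the highest knockout and the lowest floxed library nearly met. The vehicle values ran from 31.0 to 40.5 RPKM (median 34.9) in knockouts, against 32.8 to 38.3 RPKM (median 36.2) in floxed uteri, and the vehicle groups overlapped along most of their ranges. The log2 change was -0.14 ± 0.07 after progesterone (95% interval -0.29 to 0.02; limma, adjusted p = 0.212) and -0.02 ± 0.05 after vehicle (95% interval -0.13 to 0.08; adjusted p = 0.796).

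The share of Pcdhgc3 in the summed gamma RPKM was larger in knockouts, with no overlap between genotypes. The share was 60.6% to 66.0% in knockout and 53.2% to 57.2% in floxed libraries after progesterone, and 60.3% to 64.1% in knockout and 47.9% to 52.6% in floxed libraries after vehicle. The gamma array as a whole summed to 46.9 ± 3.21 RPKM in knockout and 58.7 ± 4.18 RPKM in floxed uteri after progesterone (SD, n = 4 each), and to 57.2 ± 4.96 RPKM in knockout and 70.9 ± 3.95 RPKM in floxed uteri after vehicle (SD, n = 8 each). The knockout mean of the whole gamma sum was 79.8% of the floxed mean after progesterone and 80.7% after vehicle.

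Pcdhgc4, which in mice is needed for the survival of cortical interneurons, was the sole member called higher in knockouts, in the filtered and the unfiltered fit. After vehicle it ranged from 0.868 to 1.32 RPKM (median 0.954) in knockouts, against 0.416 to 0.880 RPKM (median 0.743) in floxed uteri, with a narrow overlap. The log2 change was 0.36 ± 0.13 (limma, adjusted p = 0.0406), 0.21 within the mixed batch (adjusted p = 0.476) and 0.51 within the vehicle-only batch (adjusted p = 0.121), where every knockout library was above every floxed library, as for 7.90% of all genes. The call was lost in several alternative fits, among them those without the 5 libraries with oviduct or squamous markers (0.36, adjusted p = 0.0938) and with quantile normalization (0.26, adjusted p = 0.0984). After progesterone Pcdhgc4 had 0.445, 0.519, 0.792 and 1.23 RPKM in knockout libraries, against 0.354, 0.638, 0.648 and 0.784 RPKM in floxed libraries, and the log2 change of 0.15 ± 0.18 (adjusted p = 0.612) turned to -0.10 with quantile normalization and to -0.02 without knockout progesterone 4.

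Pcdhgc5, a member that in neurons binds GABA-A receptors, stayed below the filter. It averaged 0.288 RPKM in knockout and 0.319 RPKM in floxed uteri after progesterone, and 0.351 RPKM in knockout and 0.453 RPKM in floxed uteri after vehicle. Its log2 change in the unfiltered fit was -0.05 ± 0.09 after progesterone (limma, adjusted p = 0.803) and -0.16 ± 0.07 after vehicle (adjusted p = 0.101).

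Taken by subfamily in the 3 separate sets (mixed-batch vehicle, vehicle-only batch and progesterone), the median log2 change was -0.58, -0.62 and -0.45 for gamma A, -0.27, -0.47 and -0.29 for gamma B, and -0.03, -0.01 and -0.05 for gamma C. Every knockout library was below every floxed library for 12, 11 and 10 of 12 gamma A members in these sets, for 4, 3 and 2 of 7 gamma B members, and for 1, 0 and 1 of 3 gamma C members, beside 11.3%, 4.59% and 7.07% of all genes. By position, the rank correlation with log2 change over the 22 gamma members was 0.56, 0.42 and 0.48, the opposite sign to the beta array, with the gamma C genes last.

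Few alpha members were called between genotypes. In the unfiltered fit none of 14 was called after vehicle (limma; none had an unadjusted p under 0.05 either), and after progesterone only Pcdha10 was called lower (log2 change -0.08 ± 0.03, adjusted p = 0.0359), against 4.81% of all genes. Its mean was 0.00239 RPKM in knockout and 0.0358 RPKM in floxed uteri. Measured from the lowest value of the mixed batch, -0.0105 RPKM, these means were 0.0129 and 0.0464 RPKM. Every knockout library was below every floxed library for 2 of 14 alpha members after progesterone, Pcdha9 and Pcdha10, against 7.07% of all genes, and for none in either vehicle set. Most single alpha genes stood at a few hundredths of an RPKM or less, and changes of single alpha genes of the size seen in the other arrays were mostly not detectable at this depth. The summed alpha level was 0.144, 0.185, 0.250 and 0.295 RPKM in knockout libraries after progesterone, against 0.314, 0.324, 0.352 and 0.356 RPKM in floxed libraries, with no overlap. In the mixed batch after vehicle it ranged from 0.171 to 0.220 RPKM in knockouts, against 0.266 to 0.332 RPKM in floxed uteri, again with no overlap. In the vehicle-only batch the ranges overlapped, at 0.142 to 0.278 RPKM in knockouts, against 0.175 to 0.398 RPKM in floxed uteri. The knockout mean of the sum was 64.9% of the floxed mean after progesterone and 75.3% after vehicle, and 69.6% and 79.5% without the 5 libraries with oviduct or squamous markers.

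The nearest tested genes beside and between the arrays were not called. Taf7, a subunit of the general transcription factor TFIID whose gene lies between the beta and gamma arrays, averaged 3.95 ± 0.476 RPKM in knockout and 3.72 ± 0.305 RPKM in floxed uteri after progesterone (SD, n = 4 each), and 3.71 ± 0.235 RPKM in knockout and 3.57 ± 0.29 RPKM in floxed uteri after vehicle (SD, n = 8 each). Its log2 change was 0.08 ± 0.09 after progesterone (95% interval -0.11 to 0.26) and 0.05 ± 0.06 after vehicle (95% interval -0.08 to 0.18). Diaph1, an actin-nucleating formin next to the 3′ end of the gamma array, had -0.06 ± 0.08 after progesterone and -0.06 ± 0.06 after vehicle (95% interval -0.18 to 0.05).

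Further out, the histone deacetylase gene Hdac3 had a log2 change of -0.06 ± 0.09 after progesterone and -0.10 ± 0.06 after vehicle, and Zmat2, upstream of the alpha array, 0.04 ± 0.08 after progesterone and -0.05 ± 0.06 after vehicle. None of these 4 was called. Slc25a2, between the beta and gamma arrays, was below the filter, with a mean of 0.0667 RPKM in knockout and 0.0663 RPKM in floxed uteri after progesterone.

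Of 27 tested genes of a list covering the flanks and gaps of the locus, 1 was called higher and 1 lower after progesterone, and 2 higher and 2 lower after vehicle, with medians of 0.04 and -0.04. Of all genes tested, 12.3% were called higher and 7.06% lower after progesterone, and 13.1% higher and 11.5% lower after vehicle. After vehicle Gnpda1, a glucosamine-6-phosphate deaminase, rose by 0.71 ± 0.10 (limma, adjusted p = 8.37e-06) and the non-clustered protocadherin Pcdh12 of endothelium rose by 0.31 ± 0.10 (adjusted p = 0.0335). Cd14, a co-receptor for bacterial lipopolysaccharide, changed by -0.76 ± 0.18 (adjusted p = 0.00288) and Tmco6 by -0.23 ± 0.08 (adjusted p = 0.0356). Tmco6 had the opposite sign after progesterone, 0.41 ± 0.11 (adjusted p = 0.0108). Cystm1, upstream of the alpha array, was the gene called lower after progesterone (-0.52 ± 0.15, adjusted p = 0.0171). Called genes of the region that the list does not hold, named after their values were seen, were Hbegf, an EGF-family growth factor (-1.0 ± 0.15 after progesterone, limma, adjusted p = 5.28e-05, and -0.22 ± 0.11 after vehicle, adjusted p = 0.152), Slc35a4 (-0.33 ± 0.12 after progesterone, adjusted p = 0.0476) and Dele1 (-0.16 ± 0.05 after vehicle, adjusted p = 0.0362).

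Among 21 regulators known to act at the arrays, the called genes other than Ctcf were those of the cohesin subunits Stag1 and Stag2 and, after progesterone, Ehmt1. Stag1 averaged 22.5 ± 2.22 RPKM in knockout and 14.7 ± 0.827 RPKM in floxed uteri after progesterone (SD, n = 4 each), a log2 change of 0.59 ± 0.07 (limma, adjusted p = 1.5e-06), and after vehicle it rose by 0.47 ± 0.05 (adjusted p = 1.47e-07). Stag2 rose by 0.29 ± 0.08 after progesterone (adjusted p = 0.0143) and by 0.25 ± 0.06 after vehicle (adjusted p = 0.00257). Ehmt1, a histone H3 lysine 9 methyltransferase, was called lower after progesterone (-0.32 ± 0.07, adjusted p = 0.00343). The list had 2 higher and 2 lower after progesterone and 2 higher and 1 lower after vehicle, Ctcf being among the lower both times. Of all tested genes 19.4% were called in either direction after progesterone and 24.6% after vehicle.

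Genes of proteins that work beneath the protocadherins at the membrane were called in both directions. Of 15 tested genes of intracellular partners and processing enzymes, 2 were higher and 3 lower after progesterone, and 2 higher and 1 lower after vehicle, with medians of -0.04 and 0.00, beside 19.4% of all tested genes called in either direction after progesterone and 24.6% after vehicle. Ptk2b encodes the kinase PYK2, which the cytoplasmic parts of alpha and gamma members bind and inhibit. It averaged 11.8 ± 0.96 RPKM in knockout and 26.4 ± 4.67 RPKM in floxed uteri after progesterone (SD, n = 4 each), and 5.47 ± 1.19 RPKM in knockout and 12 ± 4.6 RPKM in floxed uteri after vehicle (SD, n = 8 each). The log2 change was -1.11 ± 0.24 after progesterone (limma, adjusted p = 0.00167) and -1.02 ± 0.17 after vehicle (adjusted p = 6.93e-05).

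The Src-family kinase gene Fyn rose by 0.59 ± 0.08 after progesterone (limma, adjusted p = 7.28e-06) and by 0.52 ± 0.05 after vehicle (adjusted p = 1.33e-07). Adam10, the protease that sheds gamma protocadherins, rose by 0.23 ± 0.05 after vehicle (adjusted p = 0.0009). Marcks, an actin regulator downstream of gamma members in neurons, rose by 0.31 ± 0.09 after progesterone (adjusted p = 0.0221), while Abi2 (-0.35 ± 0.08, adjusted p = 0.00481) and Nckap1 (-0.23 ± 0.07, adjusted p = 0.015) of the WAVE actin complex fell. Many of these genes also act outside the family, and leukocyte markers, which rose as given above, moved with the same contrast.

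Progesterone for 6 hours went with lower levels of part of both arrays. In the unfiltered fit, 3 of 22 beta and 4 of 22 gamma members were called lower in knockout uteri after progesterone than after vehicle, against 3.11% of all genes, and 10 of 22 beta and 11 of 22 gamma members in floxed uteri, against 10% of all genes. No member was called higher. With quantile normalization and no filter, 1 of 22 beta members (Pcdhb16) and 1 of 22 gamma members (Pcdhgc3) were called lower in knockouts, against 2.77% of all genes. In floxed uteri it left 3 beta and 2 gamma members, against 7.81% of all genes. The share of called genes that were higher in floxed uteri was 34.1% without that scaling and 46.5% with it (filtered fits), so the count of members called after progesterone depends on the scaling.

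In knockouts the beta sum after progesterone was 70.3% of that after vehicle and in floxed uteri 73.8%. The vehicle values of the mixed batch, which shares the constant of the progesterone libraries, were 18.5 ± 1.15 RPKM in knockouts and 39.4 ± 1.2 RPKM in floxed uteri. In floxed uteri the 4 progesterone libraries (27.6 to 30.4 RPKM) lay below all 8 vehicle libraries (33.9 to 43.4 RPKM), and in knockouts (11.4 to 14.7 RPKM) likewise below all 8 (16.6 to 22.5 RPKM). Fitted on the mixed batch alone with no filter, 2 beta and 5 gamma members were called lower in knockouts, against 3.05% of all genes, and 13 beta and 9 gamma members in floxed uteri, against 11.5%. Without the 5 libraries with oviduct or squamous markers these counts were 0 and 0 in knockouts, against 1.09%, and 4 and 5 in floxed uteri, against 6.59% (limma, no filter). The knockout counts also rested on single libraries: in the filtered fit the 3 beta calls became 1 without knockout progesterone 5 or 8, or knockout vehicle 11b or 12, and the 4 gamma calls became 1, 0, 2 and 1 without knockout progesterone 5, knockout progesterone 8, knockout vehicle 9 or 11b, and knockout vehicle 12.

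**Figure D5:**
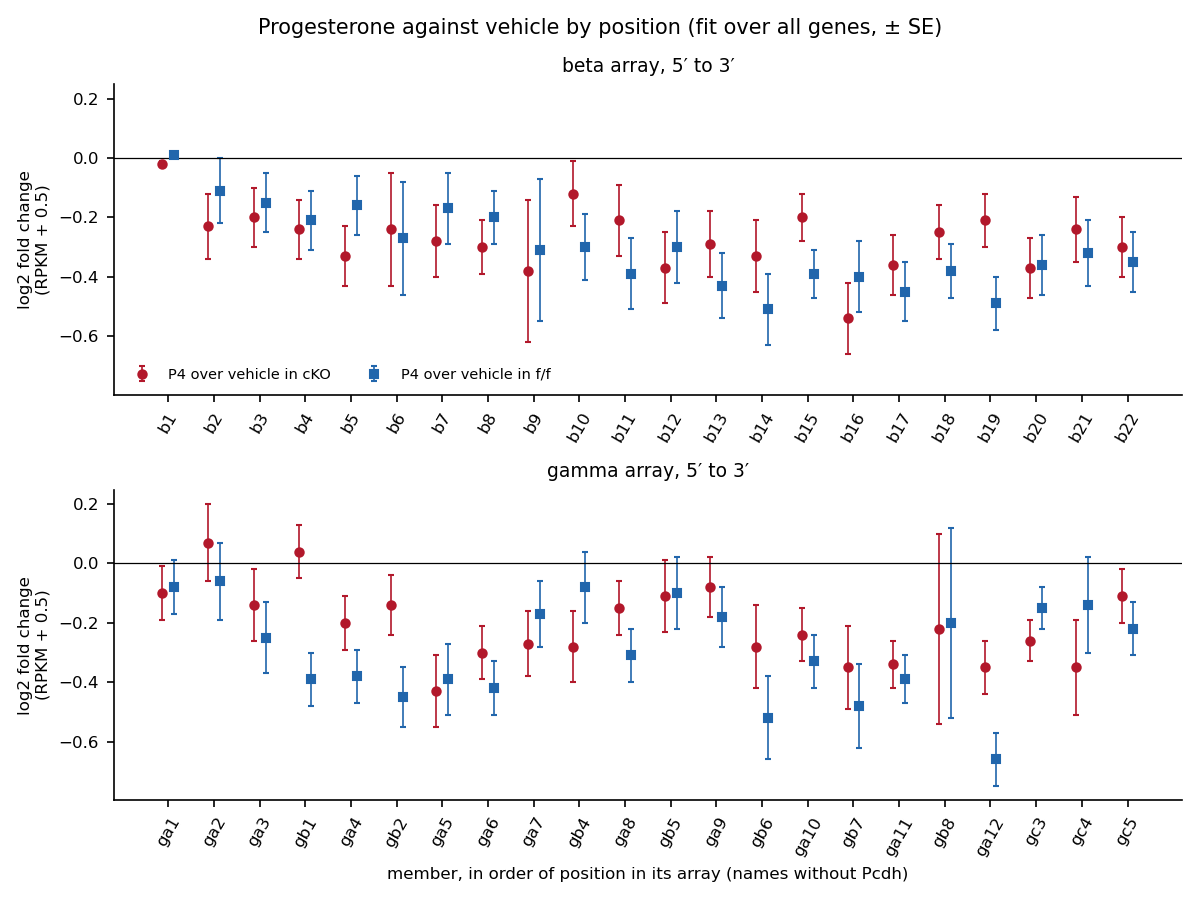
Log2 fold change of P4 over vehicle in cKO uteri (circles) and in f/f uteri (squares) for each beta member (top) and gamma member (bottom) in order of position, from the limma fit over all 22943 genes on log2(RPKM + 0.5). Bars are SEs. Most values lie below 0 in both genotypes, from -0.54 to 0.07 in cKO and from -0.66 to 0.01 in f/f, and the bars of the 2 genotypes overlap for most members.

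Pcdhga12 had the smallest adjusted p of the progesterone response in floxed uteri. It had 0.457, 0.531, 0.574 and 0.640 RPKM in floxed libraries after progesterone, against 0.989 to 1.31 RPKM (median 1.16) after vehicle, a log2 change of -0.66 ± 0.10 (limma, adjusted p = 9.21e-05). In knockouts it had 0.274, 0.435, 0.454 and 0.489 RPKM after progesterone, against 0.481 to 0.786 RPKM (median 0.680) after vehicle, and the change was -0.35 ± 0.10 (adjusted p = 0.0369). The floxed ranges were far apart and the knockout ranges overlapped slightly.

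Other members called in floxed uteri were Pcdhb19 (-0.49 ± 0.10, adjusted p = 0.00143), Pcdhb17 (-0.45 ± 0.11, adjusted p = 0.00444), Pcdhb15 (-0.39 ± 0.09, adjusted p = 0.0049), Pcdhgb2 (-0.45 ± 0.11, adjusted p = 0.0051) and Pcdhga11 (-0.39 ± 0.10, adjusted p = 0.0056), all from limma. In knockouts Pcdhb16 led with -0.54 ± 0.13 (adjusted p = 0.0081), followed by Pcdhgc3 with -0.26 ± 0.07 (adjusted p = 0.0183). Pcdhga11 (-0.34 ± 0.10, adjusted p = 0.0297), Pcdhb20 (-0.37 ± 0.11, adjusted p = 0.033) and Pcdhga5 (-0.43 ± 0.13, adjusted p = 0.0378) came next, and Pcdhb17 (-0.36 ± 0.11, adjusted p = 0.0449) was last of the 7 called. Of all these, Pcdhb16 and Pcdhgc3 in knockouts and Pcdhb17 and Pcdhga12 in floxed uteri also passed with quantile normalization in the filtered fit. Without the 5 libraries with oviduct or squamous markers none in knockouts passed (limma, adjusted p = 0.103 for Pcdhb16 and 0.194 for Pcdhgc3). In floxed uteri Pcdhga12 (0.000979), Pcdhb19 (0.0104) and Pcdhga11 (0.0146) then passed. Pcdhb17 (0.0538), Pcdhb15 (0.0602) and Pcdhgb2 (0.0622) did not. With the replicate number as a block Pcdhb16 (0.411), Pcdhgc3 (0.193) and Pcdhb17 (0.0671) failed as well.

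Whether Ctcf loss altered the progesterone response was asked with the difference of the responses. With limma none of the 58 members passed in the unfiltered fit, against 1.97% of all genes. Of the 58, 4 had an unadjusted p under 0.05 (limma), a count near what chance gives at that threshold, with the share of all genes not reported here. The largest of these was Pcdhgb1, whose log2 response in knockouts less that in floxed uteri was 0.43 ± 0.13 (95% interval 0.16 to 0.71; adjusted p = 0.0924 in the filtered fit). The others were Pcdhb19, Pcdhga12 and Pcdhgb2, each with a lesser decline or none in knockouts. With quality weights per library 2 beta and 3 gamma members passed, and on the plain RPKM scale without the filter Pcdhb19 and Pcdhgb1 passed. The share of all genes that passed in these fits is not reported here. Library weights also raised the counts of the progesterone response in knockouts, as given in the closing sections.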

How the data were processed

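RNA-seq of 24 whole-uterus libraries was deposited as 1 table of batch-corrected RPKM. Per the submitters' processing notes, reads were trimmed with cutadapt 2.7, TopHat and Partek were used and the build was mm10; the counting annotation, its use of strand and the treatment of reads with several matches were not given in the sources available. The deposited RPKM are not counts, so no count test was run. Of the deposited values 6.66% were below 0, and batch means of the vehicle libraries coincided in 13688 of 13688 genes with a mean over 1 RPKM. Differences in RPKM within a batch are unaffected by such a per-gene constant, whereas ratios and the levels of the progesterone libraries carry it.

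Values below 0 were set to 0 before log2(RPKM + 0.5), and limma 3.58.1 (R 4.3.3) was fitted with terms for the 4 groups and the batch over all 24 libraries (19 residual degrees of freedom), tested on simulated data first. Adjusted p-values run over all genes fitted: 14284 that reached 1 RPKM in 4 or more libraries, or all 22943. Most members described in detail were picked for each array and contrast by a rule on position, level and smallest p. Others were chosen after their values were seen. Not all of these are marked so where named, Pcdhgb1, Pcdhgb5, Pcdhgb7, Pcdha6 and Pcdha10 among them. The members, lists and tests were chosen with earlier results of these data known. Alternatives were pseudocounts of 0.1 and 1, filters of none and 5 RPKM, quantile normalization, the RPKM scale, each batch alone, library weights, a replicate block, leaving out 5 libraries together and each library in turn, with 5 of them also run without the filter, chosen after seeing the data. Reads per library were estimated from the worth of 1 read, over at least 127 genes each; depth limits the alpha array and Pcdhb1 most. Intervals of 95% are from limma. Positions are those of RefSeq for GRCm38.p6. Sequences are not reported here. Some single marker genes are not reported here.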

Additional observations from a re-analysis of the deposited data

Results flagged for a closer look

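Among 84 groups of 21 named genes, 3 held a library whose gap to the nearest other library was large for its group under Dixon's test, and chance alone gives about 1 in 20 groups. Pcdhb5 was 0.747 RPKM in knockout progesterone 4, against 0.452 to 0.470 RPKM in the other knockout libraries after progesterone (gap over range 0.938, critical value 0.829). Pcdhga1 was 1.91 RPKM in floxed vehicle 12, against 1.47 to 1.63 RPKM in the other floxed vehicle libraries (0.634, critical value 0.526). Pcdhb17 was 3.16 RPKM in floxed vehicle 1a, against 4.14 to 4.74 RPKM in the others of that group (0.623, critical value 0.526).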

How the results depend on the processing

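Counts in this section are of the 19 beta and 20 gamma members of the filtered fit unless stated. Of these 39, 21 passed the filter only with their floxed libraries, so genotype counts among them partly reflect that choice. The share of all genes called in the filtered alternative fits is not reported here. The beta calls between genotypes after vehicle (19) and the gamma calls (17) changed by less than 1.5 times except in the vehicle-only batch alone (12 and 10) and with a filter at 5 RPKM, which leaves Pcdhgc3 alone (0 gamma). After progesterone (19 and 10) they became 12 and 5 on the RPKM scale, and gamma became 6 without the 5 libraries with oviduct or squamous markers and 0 at 5 RPKM. The progesterone calls in knockouts (3 beta, 4 gamma) became 5 beta with a pseudocount of 0.1, 2 gamma with 1, 1 gamma at 5 RPKM, 1 and 1 with quantile normalization, 0 and 1 on the RPKM scale, 1 beta in the mixed batch, 12 and 10 with library weights, and 0 and 0 without the 5 libraries. Those in floxed uteri (9 and 10) became 1 and 2 with quantile normalization, 2 and 3 without the 5 libraries and 0 gamma at 5 RPKM. The difference of responses (0 and 0) became 2 and 3 with library weights. Without the filter 14 alpha members entered, against 0. Further fits without the filter were chosen after seeing the data. They gave 0 beta and 0 gamma calls for progesterone in knockouts without the 5 libraries, 1 and 1 with quantile normalization and 0 and 1 on the RPKM scale. In floxed uteri they gave 4 and 5 without the 5 libraries and 3 and 2 with quantile normalization, and the difference of responses had 1 and 1 on the RPKM scale. The cause was not tested.

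Leaving out 1 library at a time gave 19 to 19 beta and 15 to 17 gamma calls after vehicle, 16 to 19 and 8 to 11 after progesterone, 1 to 4 and 0 to 5 for progesterone in knockouts, 6 to 11 and 7 to 10 in floxed uteri, and 0 to 0 and 0 to 1 for the difference, where the 1 came without knockout progesterone 8. Pcdhgc4 after progesterone turned to -0.10 with quantile normalization and ran from -0.02 to 0.27 over left-out libraries. Pcdhgc3 after vehicle ran from -0.05 to 0.00.

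With the replicate number as a block, 4 beta and 1 gamma members were called between genotypes after progesterone, 0 and 0 for progesterone in knockouts and 2 and 4 in floxed uteri. Of 13 same-numbered pairs, 6 had a correlation over 0.1 (-0.342 to 0.544), and 2 of 20 libraries correlated best with their own number, so the numbers were not taken as pairs. With the replicate block, 17 beta and 12 gamma members were called after vehicle.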

Other observations

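Of 12 listed protocadherins outside the arrays, 6 were tested. Between genotypes 0 were called after progesterone (limma), beside 19.4% of all tested genes called in either direction. Only 1, Pcdh12, was called after vehicle, where it was higher, beside 24.6% of all tested genes called in either direction. Progesterone went with lower levels of 3 of the 6 in each genotype, beside 4.66% of all tested genes called lower in knockouts and 15.1% in floxed uteri. Pcdh18 averaged 6.04 ± 0.806 RPKM after progesterone and 10.2 ± 1.64 RPKM after vehicle in knockouts (SD, n = 4 and 8), a log2 change of -0.70 ± 0.14 (limma, adjusted p = 0.00207). In floxed uteri it averaged 5.85 ± 0.885 RPKM after progesterone and 12.1 ± 1.72 RPKM after vehicle, a log2 change of -0.98 ± 0.14 (adjusted p = 1.67e-05). Pcdh7 changed by -0.67 ± 0.13 in knockouts (adjusted p = 0.00265) and by -0.70 ± 0.13 in floxed uteri (adjusted p = 0.000623). Ptk2b, the kinase bound by clustered members, was higher after progesterone in both genotypes, by 1.01 ± 0.22 in knockouts (adjusted p = 0.00529) and 1.11 ± 0.22 in floxed uteri (adjusted p = 0.000914).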
